A study of Mus musculus with 24 samples.

Results

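Prolactin signalling and serotonin synthesis were followed through 10 genes in purified mouse β cells. The genes were the receptors Prlr and Ghr, the transcription factors Stat5a and Stat5b, the feedback inhibitors Cish and Socs2, the matrix protein gene Matn2, the leucine-breakdown enzyme gene Ivd, and Tph1 and Tph2, which encode tryptophan hydroxylases. They were taken by gene symbol from a table of 33619 genes, and each symbol matched 1 row. The 24 libraries came from Ins1Apple offspring, in which the Ins1 locus carries the fluorescent reporter Apple, so that β cells glow and can be sorted. Before mating with Ins1Apple males, CD1 females of about 7 weeks had eaten a high-fat diet (HFD), a low-protein diet (LPD) or a control diet (ND) for 2 weeks, and all mice were on the control diet from birth. Islets were isolated from male and female offspring at about 7 weeks, and Apple-positive cells were sorted, which gave 6 groups (HFD male, HFD female, LPD male, LPD female, ND male and ND female) of 4 libraries each. All 6 groups carry the modified Ins1 allele, and the labels name no litter, dam or batch, so that p-values measure only the spread between these samples.

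Libraries held 12433228 to 26375565 counts (median 20719858). Ins1 and Ins2 took 7.65% to 27.5% of the counts of a library, and Gcg, the glucagon gene of α cells, was present in every group, in CPM, which are counts scaled to a common library total (579.5 ± 349 CPM in HFD males and 633 ± 184 CPM in ND males, SD, n = 4 each). The HFD female libraries stood apart, with 13225 to 19404 genes detected, against 19160 to 25830 genes in the other 20 libraries. Of their detected genes 4.40% to 8.18% had 1 to 9 counts, against 13.2% to 31.9% in the other 20. Totals were 12782173 and 12433228 counts in HFD females 1 and 4, and 23676048 and 20174165 in HFD females 2 and 3. The hepatocyte genes Alb and Cps1 were seen mainly in HFD libraries: Alb averaged 44.6 ± 10.9 CPM in HFD males and 88.7 ± 31.5 CPM in HFD females, against 0.169 ± 0.161 CPM in ND males and 0.152 ± 0.101 CPM in ND females, and Cps1 had 0 counts in all LPD and ND libraries. Columns were assigned by their names, which give diet, sex and replicate. Library numbers printed above the names place all 24 columns under another maternal diet and the 8 ND columns in the other sex. Under the names, Xist and Ddx3y counts fitted the stated sex in 24 of 24 columns. For sex these counts bear out the names. For diet the labels conflict, and the diet comparisons rest on the column names.

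Prolactin and placental lactogens bind the prolactin receptor, a class I cytokine receptor with no kinase of its own. The receptor activates the kinase JAK2, which phosphorylates STAT5A and STAT5B, and these move to the nucleus as dimers and bind DNA at palindromic GAS motifs. CISH and SOCS2 are made in response and limit the signal, and the growth hormone receptor uses the same kinase and STAT5 proteins. In pregnant mice, lactogen signalling in β cells raises Tph1, and the serotonin that β cells then make takes part in the growth of β-cell mass. Tryptophan hydroxylase catalyses the rate-limiting step of serotonin synthesis, with TPH1 the main form outside the nervous system and TPH2 the form of serotonergic neurons.

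A GAS-type motif (TTCNNNGAA, which reads the same on both strands) was searched for in RefSeq promoter windows of GRCm38.p6, from 250 bases before to 50 after each start. Windows were at hand for 8 of the 10 genes, 14 windows in all, and Socs2 and Matn2 were not matched. The motif was in 3 windows of 3 genes, Cish, Ivd and Prlr, and 8.30% of all 32851 promoter windows of this length held it. Windows with 2 or more matches made up 0.457% of all windows. No match was found for Ghr, Stat5a, Stat5b, Tph1 or Tph2 in these windows. The 3 windows are shown because Cish is the classical STAT5 target of the group, Ivd was the gene that differed with the maternal high-fat diet, and Prlr is the receptor itself. Capitals mark the motif. The windows are chr9:107296409-107296708 for Cish, chr2:118861744-118862043 for Ivd and chr15:10223656-10223955 for Prlr, all on the plus strand.
Cish: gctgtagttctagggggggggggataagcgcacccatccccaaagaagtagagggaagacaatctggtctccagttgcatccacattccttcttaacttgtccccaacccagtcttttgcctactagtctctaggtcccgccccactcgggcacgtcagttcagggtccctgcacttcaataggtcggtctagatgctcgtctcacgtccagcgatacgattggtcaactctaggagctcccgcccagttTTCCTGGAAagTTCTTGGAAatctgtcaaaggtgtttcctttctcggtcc
Ivd: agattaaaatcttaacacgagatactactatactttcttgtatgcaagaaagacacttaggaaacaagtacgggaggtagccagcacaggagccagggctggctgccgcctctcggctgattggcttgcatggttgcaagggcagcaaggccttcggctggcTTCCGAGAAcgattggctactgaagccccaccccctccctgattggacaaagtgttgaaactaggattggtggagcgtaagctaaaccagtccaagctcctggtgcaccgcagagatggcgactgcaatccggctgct
Prlr: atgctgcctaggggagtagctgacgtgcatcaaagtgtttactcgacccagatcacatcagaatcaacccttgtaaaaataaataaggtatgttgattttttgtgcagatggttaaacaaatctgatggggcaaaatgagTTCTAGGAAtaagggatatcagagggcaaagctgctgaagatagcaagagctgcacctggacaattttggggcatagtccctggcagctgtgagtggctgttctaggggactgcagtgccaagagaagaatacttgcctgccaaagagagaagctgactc
In Cish the first match began at the start site itself and the second 11 bases after it. The Ivd match lay 88 bases before the start and the Prlr match 110 bases before the start of 1 of its 3 annotated windows. These are matches of letters, and binding was not measured.

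By FPKM, which sets levels per gene length, the 10 genes spanned a wide range. Prlr was highest, at 74.6 ± 12.3 FPKM (SD over 24 libraries), above 98.5% of the 19235 genes tested. Stat5b (25.6 ± 3.46 FPKM), Ghr (21.6 ± 2.17) and Ivd (20.3 ± 6.07) followed, and neighbours among these overlapped within 1 SD. Matn2 and Cish came next (12.2 ± 4.91 and 9.65 ± 5.12 FPKM), then Socs2 and Stat5a (4.53 ± 1.37 and 3.41 ± 0.766 FPKM), each pair again overlapping within 1 SD. This SD includes the differences by sex and diet, and genes were not compared within libraries. By group means, Stat5b was above Ghr and Socs2 above Stat5a in every group. Ghr and Ivd, and Matn2 and Cish, changed order between groups. Tph2 averaged 1.42 ± 0.946 FPKM. Tph1 was lowest, at 0.108 ± 0.153 FPKM, with 0 counts in 7 of 24 libraries. All 10 genes passed the filter on low counts, but Tph1 only through the female libraries, mainly those of LPD and ND. Its differences by sex and between HFD and the other diets are therefore not independent of that filter.

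All 10 are protein-coding genes, placed by the deposited table on GRCm38.p6 and written here as whole gene spans. Stat5b (chr11:100780731-100850724) and Stat5a (chr11:100859351-100885169) are neighbours on chromosome 11. Prlr (chr15:10177238-10349180), Ghr (chr15:3317760-3583492) and Matn2 (chr15:34306677-34436273) lie on chromosome 15, and Socs2 (chr10:95385362-95417180) and Tph2 (chr10:115078641-115185022) on chromosome 10. Cish lies at chr9:107296026-107302784, Ivd at chr2:118861954-118882909 and Tph1 at chr7:46644641-46672537.

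**Figure D1:**
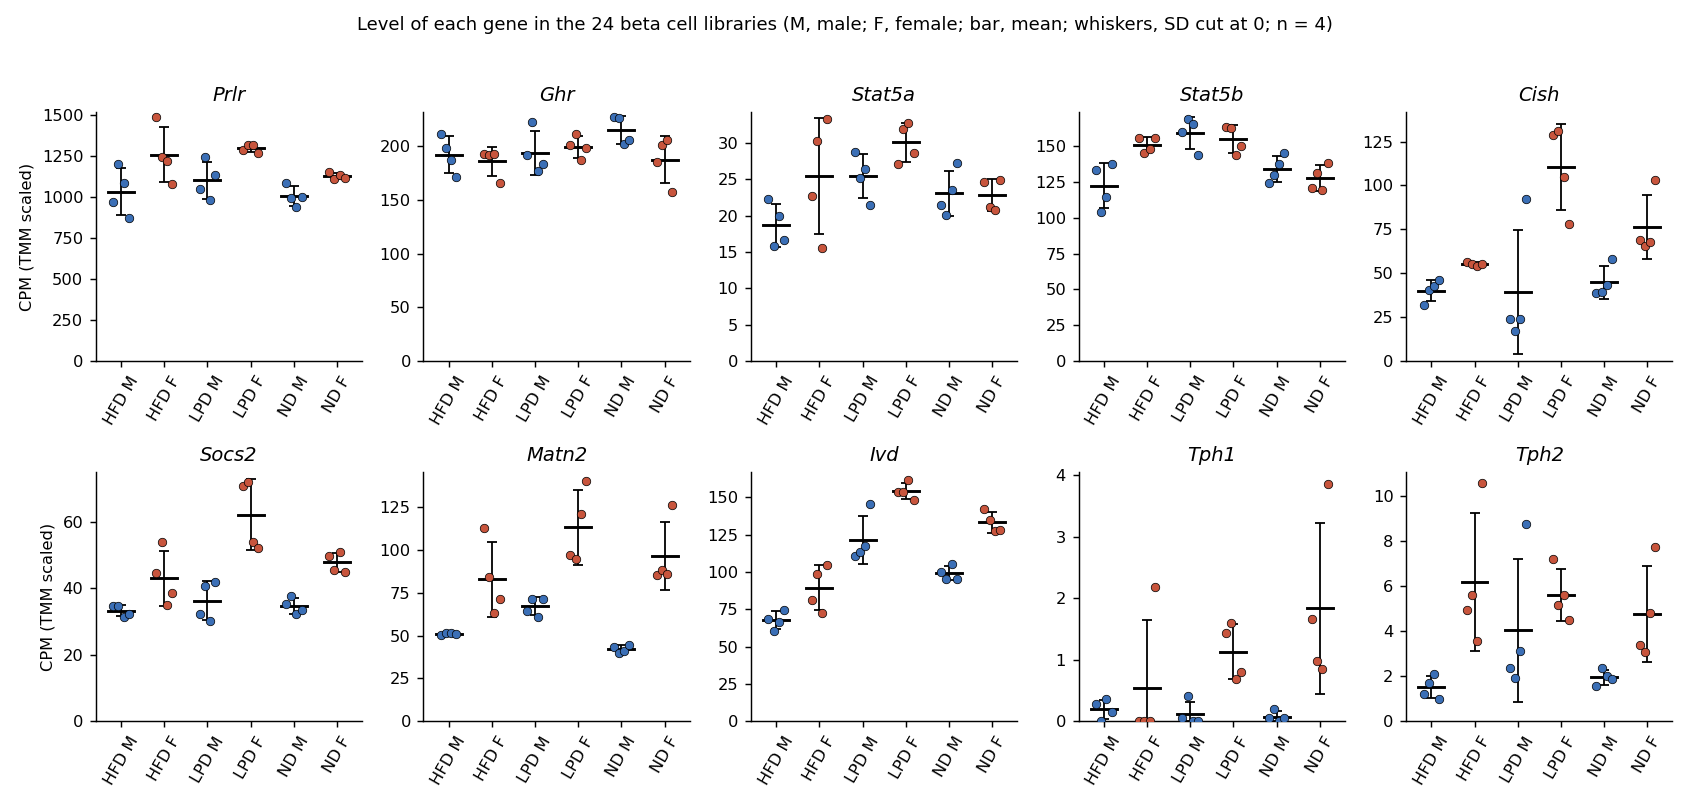
TMM-scaled CPM (y axis from 0) of each gene in every library, by maternal diet and sex (x axis). Points are libraries, bars are group means and whiskers are the SD (n = 4). Socs2 and Matn2 have every male point below every female point of the same diet, and Ivd has all 8 HFD points below the ND points of the same sex.

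The clearest pattern was by sex, the comparison of male with female offspring. Over all diets, 6 of the 9 genes other than Tph1 were lower in males (Prlr, Cish, Socs2, Matn2, Ivd and Tph2; edgeR quasi-likelihood test, Benjamini-Hochberg adjusted over 19235 genes), and Ghr, Stat5a and Stat5b did not pass. Tph1 was called lower as well but is left out of this count, since it passed the filter through the females alone. Over all genes, 4.87% were called in this comparison and 1.28% were called lower in males. The median log2 fold change of the 9 genes was −0.39, against 0.031 over all genes tested. Markers of other endocrine cells moved with sex too. Of 9 markers of α, δ and PP cells 3 were called higher and 0 lower in males (median log2 fold change 0.33), with summed levels of 1295 to 2833, 1807 to 2314 and 1506 to 2326 CPM in HFD, LPD and ND males, against 1165 to 1786, 1270.1 to 2070.1 and 1290.0 to 1880.3 CPM in HFD, LPD and ND females, and of 10 β-cell markers 2 were higher and 0 lower. Of 10 tested markers of acinar cells, the exocrine cells of the pancreas, 1 was called higher and 0 lower in males. All 10 lay above 0 (median log2 fold change 0.65). The part of these markers' cells in the sex differences was not tested. The summed levels are CPM without TMM scaling, unlike the levels of the 10 genes. The calls over all genes leaned to higher in males on TMM-scaled counts (690 higher, 247 lower), but to lower in males when log2(FPKM + 0.1) was tested with limma (412 higher, 976 lower). Each of these 6 genes and Tph1 was lower in males on both scales. Without HFD female libraries 1 and 4, the shallowest of the set, the 6 were called, and Tph1 was not (−0.88, adjusted p = 0.9298). When columns were assigned by library number, 0 of the 10 were called (edgeR, with 5 at an unadjusted p under 0.05, and DESeq2 was not run on that assignment). That assignment gives the ND libraries a sex that their Xist and Ddx3y counts contradict, so it is no check of the sex differences.

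**Figure D2:**
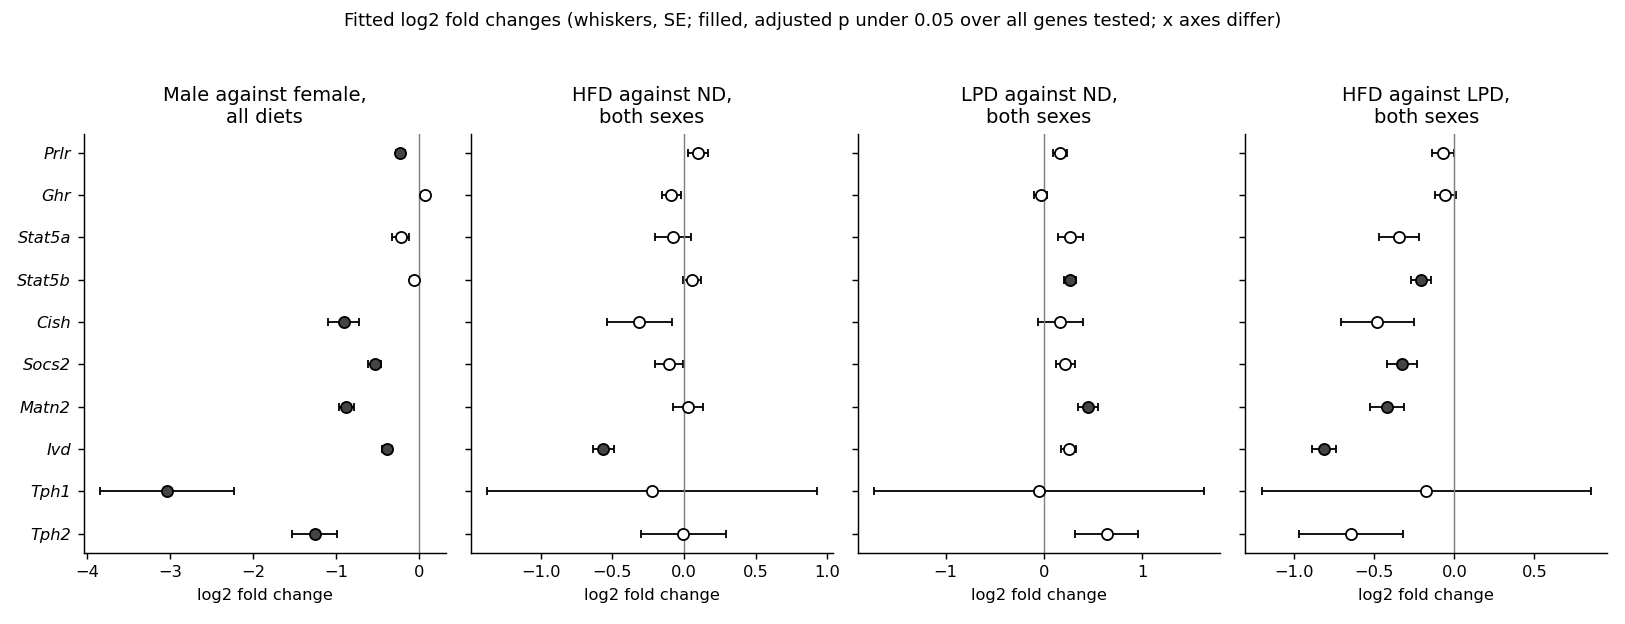
Fitted log2 fold changes of the 10 genes (x axes, which differ between panels) in 4 comparisons, with standard errors. Filled points have an adjusted p under 0.05 over all genes tested. In the first panel 7 genes are filled, all below 0, in the second only Ivd, in the third Stat5b and Matn2, and in the fourth Stat5b, Socs2, Matn2 and Ivd.

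The receptors differed from each other in this respect. Prlr had 973, 1203, 1085 and 871 CPM in HFD males, against 1490.0, 1248, 1220.4 and 1082 CPM in HFD females. It had 1052, 1244, 984 and 1138 CPM in LPD males, against 1287, 1320.3, 1319 and 1273 CPM in LPD females, and 1090.4, 996, 943 and 1001 CPM in ND males, against 1155, 1111, 1138 and 1115 CPM in ND females. The LPD and ND groups did not overlap, whereas the HFD groups did, and 10 of 12 males were below every female of their diet. Prlr was lower in males by a modest margin (log2 fold change −0.23 ± 0.06 (SE), adjusted p = 0.0164). Ghr, the growth hormone receptor, ranged from 171 to 227 CPM in males and from 158 to 211 CPM in females, and its difference did not pass (log2 fold change 0.07 ± 0.05 (SE), adjusted p = 0.646) and was of the other sign on log2(FPKM + 0.1) (−0.053). Prlr overlaps Gm21973 on the same strand, a gene with 5 counts in all libraries together.

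The STAT5 genes did not pass the test by sex. Stat5b, the more abundant of the pair, averaged 122 ± 15.7, 159 ± 11.2 and 134 ± 9.02 CPM in HFD, LPD and ND males, against 151 ± 5.39, 155 ± 9.71 and 128 ± 8.99 CPM in HFD, LPD and ND females (SD, n = 4 each; log2 fold change −0.06 ± 0.05 (SE), adjusted p = 0.665). On log2(FPKM + 0.1), tested with limma, Stat5b was lower in males (−0.19, adjusted p = 0.0227). Under HFD every male library was below every female library, while under LPD and ND the groups overlapped. The HFD effect on Stat5b was −0.13 in males and 0.24 in females on the log2 scale, and the difference of these effects did not pass (log2 fold change −0.38 ± 0.13 (SE), adjusted p = 0.101). Stat5a had a log2 fold change of −0.22 ± 0.10 (SE) by sex with adjusted p = 0.276, which passed in 1 of 24 fits that left out a library (without HFD female 3, adjusted p = 0.0495). The 3′ end of Stat5a overlaps the neighbouring Stat3 by 72 bases on the opposite strand, and the strand setting of the counting is not given in the sources used here, so reads of that stretch cannot be told apart.

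The feedback inhibitors were both lower in males. Cish, which binds the activated receptor and blocks STAT5 docking, had 31.7, 40.2, 42.7 and 46.2 CPM in HFD males, against 56.6, 55.1, 54.2 and 55.3 CPM in HFD females. It had 23.9, 17.1, 23.8 and 92.1 CPM in LPD males, against 129, 131, 105 and 78.3 CPM in LPD females. It had 38.6, 39.3, 43.1 and 58.4 CPM in ND males, against 68.99, 65.3, 67.9 and 103 CPM in ND females. In HFD and ND the male libraries were all below the female libraries, and in LPD this held for 3 of 4 males. LPD male 4 had 92.1 CPM, 4.26 times the mean of the other LPD males and within the range of the LPD females. Over all diets Cish was lower in males (log2 fold change −0.91 ± 0.19 (SE), adjusted p = 0.00405). Without LPD male 4 the difference was larger (log2 fold change −1.19 ± 0.10 (SE), adjusted p = 3.33e-08). LPD male 4 was left out for its Cish level, so this second p-value only describes that fit. Cish overlaps the antisense genes Gm17040 (164 counts in all) and Gm17041, whose reads cannot be told apart from its own without strand.

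Socs2, a suppressor of cytokine signalling best known for restraining growth hormone signals, had 34.6, 34.6, 31.2 and 32.4 CPM in HFD males, against 44.6, 53.9, 35.1 and 38.4 CPM in HFD females. It had 32.3, 40.7, 30.1 and 41.8 CPM in LPD males, against 70.6, 72.03, 53.9 and 52.2 CPM in LPD females. It had 35.2, 37.8, 32.4 and 33.4 CPM in ND males, against 49.8, 45.6, 50.8 and 45.02 CPM in ND females. Every male was below every female of its diet in all 3 diets. Just 0.125% of the genes tested (24 genes) had all 12 males below every female of their own diet, Socs2 and Matn2 among them. Socs2 was lower in males (log2 fold change −0.54 ± 0.08 (SE), adjusted p = 9.39e-05), and this call held in all 24 fits that left out a library (log2 fold change −0.57 to −0.50).

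Matn2, which encodes an extracellular matrix protein of the matrilin family, had the smallest adjusted p of the 10 by sex. It had 50.5, 51.2, 51.7 and 50.95 CPM in HFD males, against 112, 84.1, 63.1 and 71.2 CPM in HFD females. It had 64.4, 71.5, 61.04 and 71.4 CPM in LPD males, against 96.8, 94.4, 121 and 140.2 CPM in LPD females. It had 43.6, 40.1, 41.1 and 44.3 CPM in ND males, against 85.1, 88.3, 85.7 and 126 CPM in ND females. No male reached the lowest female of its diet, and the HFD males lay between 50.5 and 51.7 CPM. Over all diets Matn2 was lower in males (log2 fold change −0.88 ± 0.09 (SE), adjusted p = 2.11e-07), a 1.84-fold difference. Within ND, edgeR called Matn2 alone of the 10 genes between the sexes (log2 fold change −1.19 ± 0.15 (SE), adjusted p = 7.52e-05), where 0.598% of all genes were called. DESeq2 called Ivd (adjusted p = 0.00986) and Socs2 (adjusted p = 0.04996) as well, and the fit of only the ND groups called 6 of the 10. Matn2 overlaps 9430069I07Rik on the opposite strand, which had 688 counts in all libraries together.

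Ivd encodes isovaleryl-CoA dehydrogenase, a mitochondrial enzyme of leucine breakdown. It was lower in males over all diets (log2 fold change −0.39 ± 0.06 (SE), adjusted p = 2.16e-04). In HFD it averaged 67.6 ± 6.01 CPM in males and 89.4 ± 14.9 CPM in females. In LPD the means were 122 ± 15.96 CPM in males and 154 ± 5.65 CPM in females, and in ND 99.03 ± 4.63 CPM in males and 133 ± 6.95 CPM in females (SD, n = 4 each). In LPD and ND every male was below every female, and in HFD 3 of 4 males were.

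Tph2 was lower in males and Tph1 was called lower, both at low levels. Tph1 passed the count filter through the females alone, so its difference by sex is not independent of that filter. Tph1 had 5, 0, 6 and 3 counts in HFD males, against 0, 0, 0 and 29 counts in HFD females. It had 1, 8, 0 and 0 counts in LPD males, against 33, 41, 17 and 20 counts in LPD females, and 1, 4, 0 and 1 counts in ND males, against 37, 22, 19 and 97 counts in ND females. LPD and ND males were thus all below the females of their diet, while 3 of the 4 HFD females had 0 counts and HFD female 4 had 29. Over all diets the fitted log2 fold change was −3.04 ± 0.81 (SE; adjusted p = 0.0254), and with so many zeros its size depends on the fit. The call was lost when HFD female 4, LPD male 1, ND male 1, 3 and 4 and ND female 4 were each left out in turn (log2 fold change −3.84 to −0.88 and adjusted p up to 0.937 over all 24 such fits). Of the 4191 genes with mean levels in the range of Tph1 in ND females, 8.92% to 63.6% had 0 counts in the HFD female libraries, against 0.0477% to 9.42% in the other 20. By counting error alone, a count of 0 in HFD females 1 to 3 would allow a level of up to 0.127 to 0.235 CPM (3 counts in that library). Yet 58.8%, 8.92% and 25.1% of those 4191 genes had 0 counts in HFD females 1, 2 and 3. Those genes averaged 0.856 to 3.86 CPM in ND females, so no upper limit for Tph1 can be drawn from these zeros.

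Tph2 had 1.23, 1.71, 2.09 and 0.999 CPM in HFD males, against 4.94, 5.59, 3.54 and 10.6 CPM in HFD females. It had 2.38, 1.92, 3.098 and 8.73 CPM in LPD males, against 7.21, 5.16, 5.59 and 4.48 CPM in LPD females. It had 1.57, 2.35, 2.01 and 1.89 CPM in ND males, against 3.39, 3.08, 4.82 and 7.72 CPM in ND females. The HFD and ND groups did not overlap, and in LPD 3 of 4 males were below all females while LPD male 4, with 8.73 CPM, was above them. Tph2 was lower in males over all diets (log2 fold change −1.26 ± 0.27 (SE), adjusted p = 0.00539), and without LPD male 4 by more (log2 fold change −1.50 ± 0.25 (SE), adjusted p = 4.33e-04). This library was picked for its high level, so the p-value without it only describes that fit. LPD male 4 was thus high for both Cish and Tph2. It also had the highest Ivd and Socs2 of the LPD males (145 and 41.8 CPM, against up to 117 and 40.7 CPM in the other LPD males) and the lowest Stat5a and Stat5b (21.4 and 144 CPM, against at least 25.2 and 159.8 CPM), while its Matn2 and Prlr lay within their range. Ins2, an insulin gene, took 2.03% of its counts, against 8.25% to 11.2% in the other LPD males. Among LPD females the 3 with the highest Cish (1, 2 and 3) likewise had lower Ins2 shares, 3.27%, 3.25% and 5.04%, than LPD female 4 with 8.27%. ND females did not show this. The lowest Ins2 share among them, 3.97% in ND female 2, went with their lowest Cish and Tph2 (65.3 and 3.08 CPM). ND female 4, with the highest Cish among them (103 CPM), had an Ins2 share of 7.19%. The part of the Ins2 share in the Cish and Tph2 levels was not tested. The Xist and Ddx3y counts of LPD male 4, 28 and 1244, were those of a male.

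Counted within each diet over the 9 genes other than Tph1, 5 genes under HFD, 4 under LPD and 6 under ND had every male below every female (Prlr, Cish, Socs2, Matn2, Ivd and Tph2 under ND). Of all genes tested, 2.63%, 3.67% and 5% did so under HFD, LPD and ND. None of the 10 had the reverse arrangement in any diet. Over all 12 males and 12 females, ignoring diet, every gene overlapped. A difference between the sexes in a diet effect was tested directly. For the HFD effect of males minus that of females 0 of 10 were called by edgeR (background 3.64%), with 2 at an unadjusted p under 0.05 (Stat5b and Matn2) and 1 called by DESeq2 (Stat5b). For the LPD effect of males minus that of females 0 of 10 were called by edgeR (background 0.0052%), with 1 at an unadjusted p under 0.05 (Matn2) and 0 called by DESeq2. Leaving out a single library brought up 3 such calls. Without LPD male 4 the LPD effect on Cish was lower in males than in females (log2 fold change −1.59 ± 0.26 (SE), adjusted p = 0.00245), without HFD female 1 the HFD effect on Matn2 was higher in males (adjusted p = 0.04001), and without HFD female 4 that on Tph1 was (adjusted p = 0.0119). Each library left out was the highest of its group for the gene named, so these p-values only describe the fits. For the LPD effect, the fit without LPD male 4 called 47 of 19702 genes. With all 24 libraries kept, limma with quality weights called the LPD effect lower in males for Cish (−1.47, adjusted p = 5.26e-05) and Socs2 (−0.51, adjusted p = 0.0197). Of 11 other settings that kept the column names, it alone made either call.

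**Figure D3:**
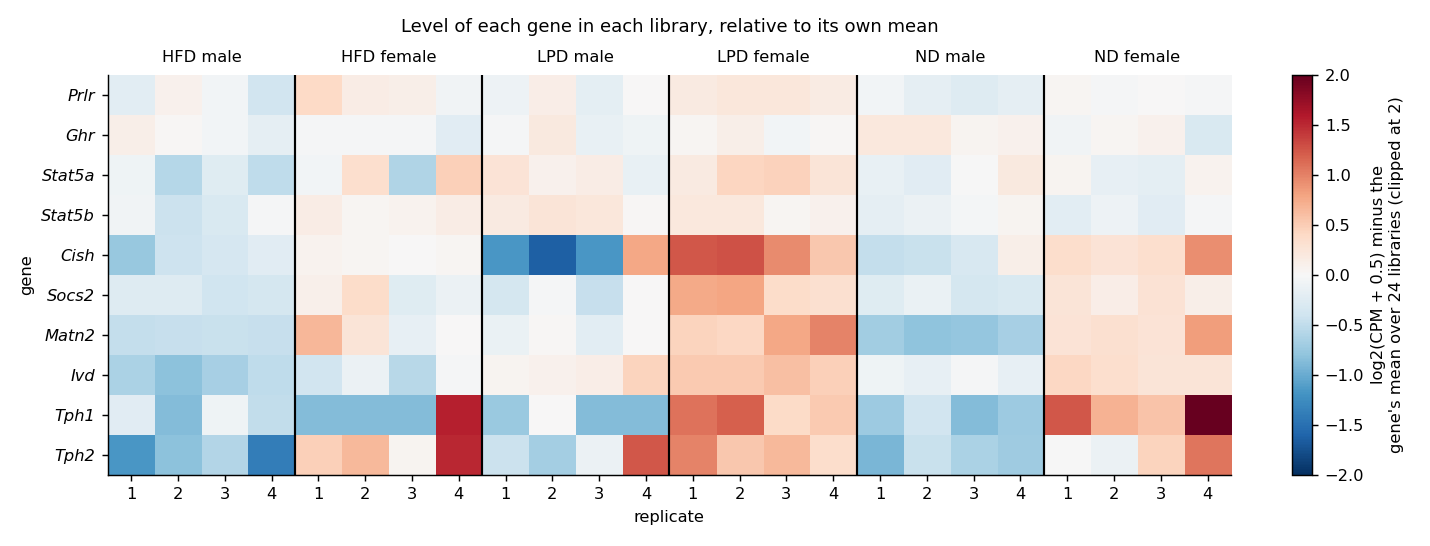
Log2(CPM + 0.5) of each gene (rows) in each library (columns, replicates 1 to 4 of each group) minus the mean of that gene over the 24 libraries, in colour. Blue marks values below the mean, as for Cish in LPD males 1 to 3, and red values above it, as for Cish and Tph2 in LPD male 4 and for Tph1 in ND female 4.

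Ivd was the one gene of the 10 called for a maternal high-fat diet over both sexes, in a comparison in which 7.2% of all genes were called (5.52% lower under HFD). It had 68.8, 60.2, 66.7 and 74.8 CPM in HFD males, against 100.2, 95.5, 105 and 95.3 CPM in ND males. It had 81.2, 98.5, 72.8 and 105 CPM in HFD females, against 142, 135, 128 and 128 CPM in ND females. All 8 HFD libraries were below all ND libraries of their sex. The log2 fold change was −0.56 ± 0.07 (SE; adjusted p = 2.50e-05), a 1.48-fold lower level. It was called in males (log2 fold change −0.55 ± 0.11 (SE), adjusted p = 0.00511; 1.25% of all genes called) and in females (log2 fold change −0.58 ± 0.10 (SE), adjusted p = 9.58e-04; 9.33% called), though not in females when the HFD and ND females alone were fitted (−0.58, adjusted p = 0.205), and the 2 effects differed by 0.03 ± 0.15 (SE; adjusted p = 0.962). Without HFD females 1 and 4 the value was −0.60, adjusted p = 1.28e-05, and the call held in all 24 fits that left out 1 library.

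The same libraries carried hepatocyte transcripts. Of 21 hepatocyte markers tested, 20 were higher in HFD than in ND (median log2 fold change 7.73) and 0 lower, with Alb at 32.6 to 119 CPM in HFD libraries, against 0 to 0.379 CPM in ND libraries. Acinar markers went the other way, with 5 of 10 tested called lower under HFD and 0 higher (median log2 fold change −1.19). Liver is known to express Ivd, Ghr, Cish, Socs2 and, in mice, Prlr. The part of these transcripts in the levels of the 10 genes was not tested. In bulk RNA, fewer cells of a type and less RNA per cell cannot be told apart. Assigned by library number, the direction of the Ivd difference was the opposite (log2 fold change 0.82, adjusted p = 6.5e-08), since the numbers rename HFD columns as ND and LPD columns as HFD.

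For the other 9 genes the HFD difference did not pass in edgeR as reported, over both sexes or within either. In males, Matn2 had 50.5 to 51.7 CPM under HFD, against 40.1 to 44.3 CPM under ND, with no overlap (0.27 ± 0.15 (SE), adjusted p = 0.654). It was called higher in 2 of 11 other settings that kept the column names. These were edgeR on only the groups compared (adjusted p = 0.0146) and limma with quality weights (adjusted p = 0.0163). Quality weights also called Ghr lower in HFD males (−0.18, adjusted p = 0.0259). In females, Stat5b had 156, 145, 148 and 156 CPM under HFD, against 121, 132, 119.6 and 138 CPM under ND, with no overlap (log2 fold change 0.24 ± 0.09 (SE), adjusted p = 0.0913). DESeq2 called it higher in HFD females (adjusted p = 0.0131), as did edgeR with other size factors (0.0383) and limma on log2(FPKM + 0.1) and log2(FPKM + 1) (0.0314 and 0.0391). Cish averaged 40.2 ± 6.17 CPM in HFD males, against 44.8 ± 9.26 CPM in ND males, and 55.3 ± 1.02 CPM in HFD females, against 76.4 ± 17.99 CPM in ND females (SD, n = 4 each). All 4 HFD females were below all 4 ND females, at a log2 fold change of −0.47 ± 0.32 (SE; adjusted p = 0.419). Prlr and Ghr had log2 fold changes of 0.10 ± 0.07 and −0.09 ± 0.07 (SE). Those of Tph2 and Tph1 were −0.0043 ± 0.29 and −0.22 ± 1.15 (SE), too wide to show a difference of moderate size. For Tph1 this turned on 1 library, HFD female 4, which had 29 counts where the 3 other HFD females had 0. Without it the fitted log2 fold change over both sexes was −3.46 (edgeR, adjusted p = 0.0459), and a call appeared within females (adjusted p = 0.00438). That library stood out by Tph1 itself, and Tph1 passed the count filter mainly through the LPD and ND females. Among genes at this level, 8.92% to 63.6% had 0 counts in HFD female libraries, against 0.0477% to 9.42% in the other 20. These p-values therefore only describe the fit, and the size of the fitted value is no measure of the difference.

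Under a maternal low-protein diet Matn2 and Stat5b were higher over both sexes, where 0.832% of all genes were called and 0.478% were called higher. Matn2 had 64.4, 71.5, 61.04 and 71.4 CPM in LPD males, against 43.6, 40.1, 41.1 and 44.3 CPM in ND males, with no overlap. In females the values were 96.8, 94.4, 121 and 140.2 CPM under LPD, against 85.1, 88.3, 85.7 and 126 CPM under ND, with overlap (log2 fold change 0.45 ± 0.11 (SE), adjusted p = 0.03603 over both sexes). Stat5b averaged 159 ± 11.2 CPM in LPD males, against 134 ± 9.02 CPM in ND males, and 155 ± 9.71 CPM in LPD females, against 128 ± 8.99 CPM in ND females (log2 fold change 0.26 ± 0.06 (SE), adjusted p = 0.0405), with 7 of 8 LPD libraries above all ND libraries of their sex. Both calls were close to the threshold. The Matn2 call was lost on leaving out any one of HFD male 3, LPD male 1, 2 and 3, LPD female 3 and 4, ND male 1, 2, 3 and 4 and ND female 1, 2 and 3 (adjusted p up to 0.111). The Stat5b call was lost without any one of HFD male 1 and 3, LPD male 1, 2 and 3, LPD female 1, 2, 3 and 4, ND male 1, 2 and 3 and ND female 1, 2 and 3 (adjusted p up to 0.127). Without HFD females 1 and 4 both passed (adjusted p = 0.005498 for Matn2 and 0.02395 for Stat5b), as did Ivd (0.24, adjusted p = 0.0455). Assigned by library number, the log2 fold changes were −0.027 (adjusted p = 0.94) for Matn2 and −0.055 (adjusted p = 0.73) for Stat5b.

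Within 1 sex, 0 of the 10 genes were called for LPD against ND by edgeR, with background shares of 0.187% in males and 0.307% in females. In males 4 genes (Stat5b, Matn2, Ivd and Tph2) and in females 4 (Prlr, Stat5a, Stat5b and Socs2) had an unadjusted p under 0.05, and DESeq2 called 1 in each sex, Matn2 in males and Stat5b in females. Matn2 in males came nearest in edgeR (log2 fold change 0.67 ± 0.15 (SE), adjusted p = 0.0735), and passed in 5 of the 24 fits that left out a library, those without HFD female 1, 3 and 4, LPD female 4 and ND female 4 (adjusted p down to 0.0154). In edgeR, Cish in males turned on LPD male 4. With it, the log2 fold change was −0.20 ± 0.32 (SE; adjusted p = 1). Without it, Cish was lower in LPD males than in ND males (log2 fold change −1.05 ± 0.19 (SE), adjusted p = 0.00491; 17.1 to 23.9 CPM in 3 LPD males, against 38.6 to 58.4 CPM in 4 ND males), while LPD females stood at 78.3 to 131 CPM, against 65.3 to 103 CPM in ND females. That fit called 177 of 19702 genes in this comparison. LPD male 4 was singled out by its Cish level, so the p-value without it only describes that fit. With all 24 libraries kept, limma with quality weights called Cish lower in LPD males (−0.77, adjusted p = 7.95e-04). It also called Cish higher in LPD females (0.70, adjusted p = 0.00272). Of 11 other settings that kept the column names, it alone made either call. Ivd was above all ND libraries of its sex in 8 of 8 LPD libraries, and its difference over both sexes did not pass as reported (log2 fold change 0.25 ± 0.07 (SE), adjusted p = 0.112). It was called in 4 of 11 other settings that kept the column names. These were quality weights (adjusted p = 0.00215), only the groups compared (0.0215), and fits without the HFD female group (0.0217) or HFD females 1 and 4 (0.0455).

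Set directly against each other, HFD was lower than LPD for 4 of the 10 genes, where 9.99% of all genes were called and 7.61% were called lower. These were Ivd (log2 fold change −0.82 ± 0.07 (SE), adjusted p = 6.52e-08), Matn2 (log2 fold change −0.42 ± 0.11 (SE), adjusted p = 0.0107), Socs2 (log2 fold change −0.33 ± 0.10 (SE), adjusted p = 0.02902) and Stat5b (log2 fold change −0.21 ± 0.06 (SE), adjusted p = 0.0341). All 10 log2 fold changes were below 0, with a median of −0.34, against −0.054 over all genes tested. These 10 include Tph1 (−0.18 ± 1.03 (SE)), whose difference between HFD and the other diets is not independent of the count filter. The comparison shares its libraries with the comparisons against ND, so it is no separate evidence. The Ivd and Matn2 calls held in all 24 fits that left out a library. The Socs2 call was lost without any one of HFD male 3, LPD male 2 and 4 and LPD female 1 and 2 (adjusted p up to 0.0718), and the Stat5b call without any one of HFD male 2 and 3, LPD male 1, 2 and 3 and LPD female 1 and 2 (adjusted p up to 0.0868). Of 10 other settings that kept the column names, 5 lost the Socs2 call (adjusted p = 0.0583 with other size factors, 0.158 with quality weights, 0.105 and 0.111 on log2 FPKM and 0.114 with only the groups compared) and 4 lost the Stat5b call (adjusted p = 0.0563 to 0.0915). Without HFD females 1 and 4 together, the same 4 genes, Stat5a and Tph1 were called. Calls of 2 other genes appeared without single libraries, of Stat5a without HFD female 2 or 4 (adjusted p down to 0.02095) and of Tph1 without HFD female 4 (adjusted p = 0.0343). HFD female 4 stood out by Tph1 itself, so the Tph1 calls without it only describe those fits. Assigned by library number, the comparison of HFD with LPD becomes that of the columns named LPD with those named ND. In the test of any difference among the 6 groups, 7 of the 10 genes passed (Prlr, Stat5b, Cish, Socs2, Matn2, Ivd and Tph2), against 11.7% of all genes.

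The 10 genes were set beside 92 tested genes of 8 pathway lists. By sex, 4 of the 92 were called, 1 higher and 3 lower in males (4.35%, median log2 fold change −0.0058), against a background of 4.87%. Among the receptor partners 2 of 17 were lower in males, Jak1, a kinase of other cytokine receptors (−0.19 ± 0.05 (SE), adjusted p = 0.0169), and Shc1, an adaptor of growth factor receptors (−0.24 ± 0.07 (SE), adjusted p = 0.0416). Jak2, the kinase of the prolactin receptor, was not called (−0.03 ± 0.07 (SE), adjusted p = 0.931). Of the 14 feedback inhibitors other than Cish and Socs2, 0 were called by edgeR (median log2 fold change −0.0036), with 0 at an unadjusted p under 0.05 and 0 called by DESeq2. Of 20 tested genes on a list of reported prolactin or pregnancy responses of β cells, 1 was called. This was Ccnd2, a cyclin of β-cell proliferation, which was higher in males (0.17 ± 0.04 (SE), adjusted p = 0.0182).

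In serotonin handling, 1 of 10 tested genes was called by sex. Maob, which encodes a monoamine oxidase that breaks down amines including serotonin, averaged 139 ± 5.79, 148 ± 9.497 and 148 ± 7.95 CPM in HFD, LPD and ND males, against 183 ± 10.8, 190.1 ± 12.03 and 177 ± 7.67 CPM in HFD, LPD and ND females (−0.34 ± 0.04 (SE), adjusted p = 1.49e-05). All 12 males were below every female of their diet. Ddc, the enzyme after tryptophan hydroxylase, averaged 629 CPM over all libraries and was not called (−0.06 ± 0.05 (SE), adjusted p = 0.746). Slc18a1 and Slc18a2, the vesicular transporters, were not called either. Of the serotonin receptor genes in the table, 1 of 10 passed the count filter, Htr2b, and it was not called (−0.65 ± 0.29 (SE), adjusted p = 0.269). The 8 genes that make or recycle the hydroxylase cofactor tetrahydrobiopterin and the 18 tested genes of leucine and branched-chain breakdown other than Ivd had 0 calls by sex in edgeR and in DESeq2, with 1 of the 8 and 0 of the 18 at an unadjusted p under 0.05 in edgeR.

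**Figure D4:**
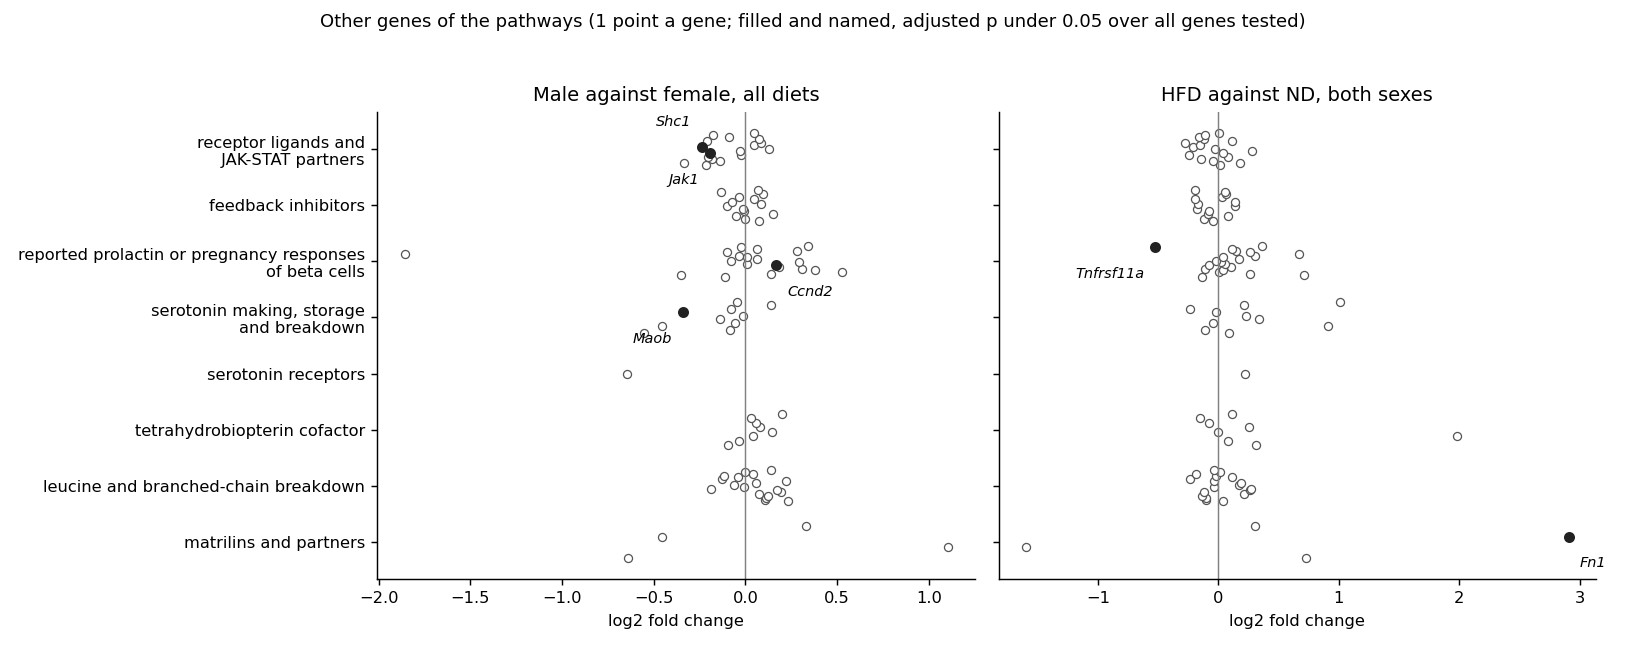
Log2 fold changes (x axis) of the tested genes of 8 pathway lists (rows), 1 point a gene, for males against females (left) and HFD against ND (right). Filled, named points have an adjusted p under 0.05 over all genes tested. The left panel has 4 filled points, 3 of them below 0, and the right panel 2, Fn1 above and Tnfrsf11a below 0.

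By maternal diet, 2 of the 92 genes were called for HFD against ND (2.17%, background 7.2%). Fn1, the fibronectin gene, was higher (2.91 ± 0.66 (SE), adjusted p = 0.00631), at 1.54 ± 0.349 CPM in HFD males and 3.85 ± 3.09 CPM in HFD females, against 0.2804 ± 0.152 CPM in ND males and 0.357 ± 0.314 CPM in ND females. Fn1 is also made by hepatocytes, whose markers were higher in the same libraries, and their part in this difference was not tested. Tnfrsf11a, the receptor for RANKL, was lower (−0.53 ± 0.16 (SE), adjusted p = 0.0456). For LPD against ND 0 of 92 were called (edgeR, background 0.832%), with 9 at an unadjusted p under 0.05 and 0 called by DESeq2. For HFD against LPD 7 were called (7.61%, background 9.99%), and 5 of the 7, on the signalling and response lists, were lower. These were Stat3 (−0.42 ± 0.08 (SE), adjusted p = 0.00122), Shc1 (−0.36 ± 0.08 (SE), adjusted p = 0.00563), Ptpn11, which encodes the phosphatase SHP2 (−0.35 ± 0.08 (SE), adjusted p = 0.00411), Ccnd2 (−0.22 ± 0.05 (SE), adjusted p = 0.00624) and Tnfrsf11a (−0.71 ± 0.16 (SE), adjusted p = 0.00568). On the leucine and branched-chain list Hibch, an enzyme of valine breakdown, was higher (0.48 ± 0.15 (SE), adjusted p = 0.0376) and Slc25a44, the mitochondrial carrier of branched-chain amino acids, lower (−0.23 ± 0.08 (SE), adjusted p = 0.0468). The remaining 16 tested genes of that list passed in neither direction.

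Likeness of pattern was measured, as a description, by the Pearson r of log2(CPM + 0.5) over the 24 libraries among genes averaging at least 1 CPM. These libraries share sexes, diets and the HFD female group, which stood apart in genes detected. For Prlr the nearest were Gtf2a1 (r = 0.80), Washc5 (r = 0.80) and A530058N18Rik (r = 0.78), with Matn2 (r = 0.72) at rank 24 and Socs2 (r = 0.69) at rank 38 of 14919 genes. For Cish they were Cebpd (r = 0.89), Npy (r = 0.88) and Lonrf3 (r = 0.83), with Socs2 (r = 0.75) at rank 24 and Tph2 (r = 0.67) at rank 76. Cebpd averaged 21.6 ± 6.35, 24.01 ± 23.3 and 37.6 ± 14.0 CPM in HFD, LPD and ND males, against 55.01 ± 7.71, 63.3 ± 19.4 and 51.3 ± 15.9 CPM in HFD, LPD and ND females (SD, n = 4 each). Npy, which encodes neuropeptide Y, averaged 23.96 ± 4.76, 31.1 ± 32.5 and 19.9 ± 2.59 CPM in HFD, LPD and ND males, against 48.1 ± 11.3, 109 ± 47.5 and 48.97 ± 23.9 CPM in HFD, LPD and ND females. In LPD males the SD was thus about as large as the mean for both genes, as it was for Cish (39.2 ± 35.4 CPM). Likeness without LPD male 4 was not measured. For Tph1 the nearest were St14 (r = 0.77), 4930435N07Rik (r = 0.75) and Aldh9a1 (r = 0.72), with Matn2 (r = 0.59) at rank 57. Stat5b (r = 0.012 with Cish) and Ghr (r = −0.25 with Cish) did not follow these patterns.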

How the data were processed

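RNA of sorted β cells was depleted of ribosomal RNA before library making. The authors deposited raw counts per gene, and FPKM values that equal the deposited counts divided by gene length and column total to within 0.0005. Per the submitters' processing notes, cutadapt 2.10, STAR 2.7.8a, HOMER and DESeq2 were used with GRCm38.p6, and the tool and annotation behind the counts, and how it treated strand, were not given in the sources used here. Of 33619 genes, 19235 passed filterByExpr. Counts of all 24 libraries (12433228 to 26375565 each) were scaled by TMM and fitted with 1 mean for each of 6 groups in edgeR 4.0.16 (R 4.3.3), tested by the quasi-likelihood F test, and called at a Benjamini-Hochberg adjusted p below 0.05 over all genes tested. CPM values are TMM scaled. The procedure was tested on simulated counts.

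Alternatives were other size factors, DESeq2 1.42.0, limma 3.58.1 (voom with quality weights, and FPKM with a pseudocount of 0.1 or 1), no filter on low counts, robust estimation, fewer groups, a replicate block, libraries or groups left out, and columns assigned by library number. The 10 genes and all lists were chosen with earlier results of these data known. The text names all 10 genes, up to 4 called genes of smallest p in each pathway list for sex and for each diet comparison over both sexes, the markers Alb, Cps1, Ins1, Ins2 and Gcg, and the 3 genes most like Prlr, Cish and Tph1. Jak2, Ddc, Slc18a1, Slc18a2, Htr2b, Gm21973, Gm17040, Gm17041 and 9430069I07Rik were named for their role or position after their values were seen. Cpa3, Prl and Matn1 were not analysed here, and some genes of the lists are not reported here and are in none of their counts.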

Additional observations from a re-analysis of the deposited data

Results flagged for a closer look

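One library stood far from the other 3 of its group, by Dixon's 95% criterion on CPM, in 6 of 60 sets of 4 values, and chance picks out about 1 in 20 such sets. Cish was at 92.11 CPM in LPD male 4, against 17.1 to 23.9 CPM in the other LPD males. ND female 4 was high for both Cish and Matn2. Cish was at 103.3 CPM in ND female 4, against 65.3 to 68.99 CPM in the other ND females, and Matn2 at 125.9 CPM in ND female 4, against 85.1 to 88.3 CPM in the other ND females. Ghr was at 166.2 CPM in HFD female 4, against 192.0 to 192.5 CPM in the other HFD females. Tph1 was at 2.186 CPM in HFD female 4, against 0 CPM in the other HFD females, and at 0.4159 CPM in LPD male 2, against 0 to 0.0497 CPM in the other LPD males. LPD male 4, ND female 4 and HFD female 4 were each the highest library of their group for Tph2 as well, at 8.73, 7.72 and 10.6 CPM.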

How the results depend on the processing

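Of the 10 genes, the tests as reported called 1 in HFD against ND, 2 in LPD against ND, 4 in HFD against LPD, 1 in HFD against ND in males, 1 in HFD against ND in females, 0 in LPD against ND in males, 0 in LPD against ND in females, 0 in the sex difference of the HFD effect, 0 in the sex difference of the LPD effect, 7 in males against females, 1 in males against females under ND and 7 in any difference. Counts that moved by more than 1.5 times under another setting were these. Columns assigned by library number gave 4 in HFD against ND, 1 in LPD against ND, 2 in HFD against LPD, 2 in HFD against ND in males, 2 in HFD against ND in females, 3 in LPD against ND in males, 3 in LPD against ND in females, 4 in the sex difference of the LPD effect, 0 in males against females and 4 in males against females under ND. No filter on low counts gave 1 in LPD against ND and 1 in LPD against ND in males. A replicate block gave 1 in LPD against ND. Voom with sample quality weights gave 5 in LPD against ND, 3 in HFD against ND in males, 6 in LPD against ND in males, 4 in LPD against ND in females, 2 in the sex difference of the LPD effect and 7 in males against females under ND. Limma on log2(FPKM + 0.1) gave 0 in LPD against ND, 3 in HFD against ND in females, 1 in the sex difference of the HFD effect and 2 in males against females under ND. Limma on log2(FPKM + 1) gave 0 in LPD against ND, 2 in HFD against LPD, 2 in HFD against ND in females and 2 in males against females under ND. Size factors of the DESeq2 kind in edgeR gave 2 in HFD against LPD and 2 in HFD against ND in females. A fit of only the groups compared gave 2 in HFD against LPD, 2 in HFD against ND in males, 0 in HFD against ND in females, 1 in LPD against ND in males and 6 in males against females under ND. DESeq2 gave 2 in HFD against ND in females, 1 in LPD against ND in males, 1 in LPD against ND in females, 1 in the sex difference of the HFD effect and 3 in males against females under ND. Leaving out HFD females 1 and 4 gave 2 in HFD against ND in females, 1 in LPD against ND in males, 2 in the sex difference of the HFD effect and 3 in males against females under ND. Leaving out the HFD female group gave 1 in LPD against ND in males and 4 in males against females under ND. Robust estimation gave 2 in males against females under ND. Leaving out each of the 24 libraries in turn gave 1 to 2 in HFD against ND, 0 to 2 in LPD against ND, 2 to 6 in HFD against LPD, 1 to 1 in HFD against ND in males, 1 to 2 in HFD against ND in females, 0 to 1 in LPD against ND in males, 0 to 0 in LPD against ND in females, 0 to 1 in the sex difference of the HFD effect, 0 to 1 in the sex difference of the LPD effect, 6 to 8 in males against females, 1 to 3 in males against females under ND and 6 to 9 in any difference.

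Direction turned round for 17 values called in at least one of the fits compared, all with columns assigned by library number. The sex this gives the ND columns is contradicted by Xist and Ddx3y, so its comparisons that involve sex are no check. Their log2 fold changes were 0.33 for Socs2 and 0.82 for Ivd in HFD against ND. They were −0.055 for Stat5b and −0.027 for Matn2 in LPD against ND. They were 0.26 for Stat5b, 0.22 for Socs2, 0.45 for Matn2 and 0.25 for Ivd in HFD against LPD. They were 0.38 for Stat5b and 0.85 for Ivd in HFD against ND in males. They were 0.53 for Socs2 and 0.79 for Ivd in HFD against ND in females. They were −0.32 for Prlr, −0.97 for Matn2 and −1.65 for Tph2 in LPD against ND in females. It was 0.84 for Socs2 in the sex difference of the LPD effect. It was −0.30 for Stat5b in males against females under ND. Of 3898 values of single genes under other settings, 3715 kept their side of the threshold, 94 newly passed and 72 no longer passed.

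No sign was seen that the replicate numbers pair the libraries, though these correlations could miss shared litters or batches. Deviations of same-numbered libraries from their group means correlated at −0.161 to 0.197 (median 5.4e-04), with 6 of 60 pairs over 0.1. For libraries of other numbers the range was −0.261 to 0.22 (median 0.00344), with 12 of 180 pairs over 0.1. Of 24 libraries, 5 were closest to one of their own number. The replicate block took away the Stat5b call in LPD against ND and the Tph1 call by sex. On log2(FPKM + 0.1) the median of all genes for HFD against ND in females lay at −0.25, against −0.09 as reported, and 70.3% of the calls by sex were lower in males, against 26.4%. Of the calls for HFD against LPD, 64.2% were lower in DESeq2, against 76.2% as reported, and of those for LPD against ND 52.5% on log2(FPKM + 0.1), against 42.5%. Comparisons that need HFD females have no value without that group, those that need all groups have no fit of fewer, and the test planned for genes below the count filter was not run because all 10 passed. Low counts limit Tph1 most, at 0 to 97 a library. The cause of these changes was not tested.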
